A study of Homo sapiens with 6 samples.

Results

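The nuclear-encoded subunits of the oxidative phosphorylation complexes were followed across 6 arrays of A2780 cells with knockdown of BMI1 or FAL-1. Members were the probe sets annotated to exactly 1 gene symbol that starts with NDUFA, NDUFB, NDUFC, NDUFS, NDUFV, SDHA to SDHD, UQCR, COX4 to COX8 or ATP5. The assembly factors named NDUFAF (7 genes), 2 pseudogenes and the non-coding NDUFV1-DT were left out. This gave 79 genes of the 18418 measured, read by 86 probe sets. Complex I has 34 of them, complex II 3, complex III 7, complex IV 17 and complex V 18. SDHB, UQCRFS1, NDUFA4 and NDUFA4L2 had no probe set in the annotation used here. NDUFC2, NDUFS5, UQCRHL and ATP5F1E share a probe set with another symbol, and neither these nor the subunits encoded by mitochondrial DNA were analysed here.

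Oxidative phosphorylation is the chain of inner mitochondrial membrane complexes that turns the energy of NADH and succinate into ATP. Complexes I and II pass electrons to ubiquinone, complex III passes them to cytochrome c, and complex IV hands them to oxygen. Complexes I, III and IV pump protons as they do so, and complex V, the ATP synthase, makes ATP from their return flow. The transcription factors NRF1 and GABPA are known to act on many of the subunit genes.

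A2780 is a human ovarian cancer cell line. All 6 cultures were infected with lentivirus carrying a short hairpin RNA (shRNA), grown in RPMI1640 with 10% fetal bovine serum, and harvested 96 hours after infection, with the viral medium replaced at 24 hours. The BMI1 groups were 1 control array (BMI1 Ctrl) and 2 knockdown arrays (BMI1 shRNA1 and BMI1 shRNA2, here hairpins 1 and 2). The FAL-1 groups were likewise 1 control array (FAL-1 Ctrl) and 2 knockdown arrays (FAL-1 shRNA1 and FAL-1 shRNA2). BMI1 is a subunit of Polycomb repressive complex 1, which silences chromatin, and FAL-1 is a long non-coding RNA. Every array, controls included, thus comes from virus-infected cells of 1 line, and what the control hairpins contain is not described.

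Values are log2 array signals, so a difference of 1 is a doubling. They depend on each probe set's own brightness, so differences are between arrays, and a gene is called bright or dim only by its array value. The array medians lay between 6.94 and 7.09, and any pair of arrays correlated at 0.973 to 0.995 over probe sets. The BMI1 signal was 26.8% of its control with BMI1 hairpin 1 and 64.0% with BMI1 hairpin 2, against 99.9% and 79.8% with the FAL-1 hairpins. FALEC, the gene of FAL-1, is not among the annotated symbols, so its knockdown was not checked. FAL-1 hairpin 2 stood apart: 11.2% of genes differed from the control by at least 1.5-fold, against 2.51% with FAL-1 hairpin 1 and 5.01% and 5.82% with the BMI1 hairpins. The 11 epithelial and ovarian carcinoma markers had array medians of 6.35 to 6.98, with KRT8 and KRT18 bright on all arrays and CDH1, EPCAM, MUC16, PAX8 and WT1 dim, below the median gene. The 9 measured markers of other cell types had array medians of 7.51 to 8.97, with PTPRC, CD3E, PECAM1 and VWF dim and COL3A1, LUM and DCN bright. KRT19 and CD68 were highest on the FAL-1 hairpin 2 array, at 8.57 and 9.23, against at most 6.73 and 8.34 elsewhere. Whether any of these differences plays a part in the values below was not tested. The cultures are not described as separate. The p-values rest on the spread between the 2 hairpin arrays of a target, pooled over both targets and drawn toward the spread of all genes. The arrays of a pair carry different hairpins and may also differ technically. No spread of a control array enters them.

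The promoters of the members were searched for sequence elements for which respiratory genes are known. RefSeq promoters on GRCh38.p14, windows of 300 bases that end 50 bases past the annotated start, were matched for 67 of the 79 members. The 6 shown belong to the members that the results turn on: COX7C, above its control on every knockdown array (chr5:86617691-86617990, plus strand); NDUFA2, highest with FAL-1 knockdown after COX7C (chr5:140647581-140647880, minus strand); NDUFB6, lowest with BMI1 knockdown (chr9:32573110-32573409, minus strand); ATP5ME, below its control on every knockdown array (chr4:674227-674526, minus strand); UQCRC1, the same in complex III (chr3:48609597-48609896, minus strand); and COX5B, above its control on every knockdown array (chr2:97645812-97646111, plus strand). Capitals mark matches to a motif of NRF1 (GCGCNTGCG), ETS factors such as GABPA (CCGGAAG), YY1 (AAGATGGCG), the TATA box (TATAAA) or ZNF143 (ACTACANTT), searched on both strands, each motif separately, so that matches may overlap.
COX7C: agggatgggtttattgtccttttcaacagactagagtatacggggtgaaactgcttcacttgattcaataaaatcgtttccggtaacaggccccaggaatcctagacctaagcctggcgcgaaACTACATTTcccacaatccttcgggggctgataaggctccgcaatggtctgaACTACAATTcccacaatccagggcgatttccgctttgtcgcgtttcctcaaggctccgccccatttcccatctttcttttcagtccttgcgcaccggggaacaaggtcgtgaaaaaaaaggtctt
NDUFA2: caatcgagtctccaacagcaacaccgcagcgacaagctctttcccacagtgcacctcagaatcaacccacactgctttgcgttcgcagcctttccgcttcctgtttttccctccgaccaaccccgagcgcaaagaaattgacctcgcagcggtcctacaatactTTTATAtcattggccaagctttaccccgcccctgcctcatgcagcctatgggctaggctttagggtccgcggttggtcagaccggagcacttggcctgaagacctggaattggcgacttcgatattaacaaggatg
NDUFB6: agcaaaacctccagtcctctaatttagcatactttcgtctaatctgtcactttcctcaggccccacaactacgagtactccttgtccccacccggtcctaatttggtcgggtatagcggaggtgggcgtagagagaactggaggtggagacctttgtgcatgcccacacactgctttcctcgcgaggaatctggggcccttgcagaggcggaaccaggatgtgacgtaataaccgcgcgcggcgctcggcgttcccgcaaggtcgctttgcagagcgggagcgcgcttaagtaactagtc
ATP5ME: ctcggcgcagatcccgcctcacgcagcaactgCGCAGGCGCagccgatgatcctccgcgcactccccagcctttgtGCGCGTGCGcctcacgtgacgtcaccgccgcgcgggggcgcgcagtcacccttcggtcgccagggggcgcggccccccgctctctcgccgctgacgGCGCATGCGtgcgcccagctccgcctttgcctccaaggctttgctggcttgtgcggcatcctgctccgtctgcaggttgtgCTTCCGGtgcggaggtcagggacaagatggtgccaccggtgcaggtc
UQCRC1: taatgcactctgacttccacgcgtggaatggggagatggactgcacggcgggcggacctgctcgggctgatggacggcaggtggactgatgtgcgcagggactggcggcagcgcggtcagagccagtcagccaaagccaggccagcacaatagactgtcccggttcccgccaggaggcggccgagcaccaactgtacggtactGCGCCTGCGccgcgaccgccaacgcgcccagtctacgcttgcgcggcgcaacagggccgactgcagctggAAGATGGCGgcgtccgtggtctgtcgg
COX5B: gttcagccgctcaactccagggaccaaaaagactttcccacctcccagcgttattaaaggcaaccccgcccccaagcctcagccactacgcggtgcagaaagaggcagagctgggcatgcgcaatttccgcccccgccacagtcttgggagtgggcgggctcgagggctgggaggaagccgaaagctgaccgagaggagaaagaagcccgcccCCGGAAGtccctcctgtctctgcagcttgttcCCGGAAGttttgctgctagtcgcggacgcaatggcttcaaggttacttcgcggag

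ATP5ME held 3 NRF1 matches and 1 ETS match, and UQCRC1 held 1 NRF1 and 1 YY1 match. COX5B held 2 ETS matches. COX7C held none of these and carried the ZNF143 letters at 2 places, 127 and 75 bases before the start. NDUFA2 held a TATA match on the other strand, 86 bases before the start, and NDUFB6 held no match. Over the members, an NRF1 match was found in 22 of 67 promoters (32.8%), against 8.05% of all 27305 promoters of the table and 11.4% of the 14240 whose gene was measured. ETS matches were in 19 (28.4%, against 10.7% and 14.6%) and YY1 matches in 7 (10.4%, against 1.85% and 2.87%). Among 66 promoters of mitochondrial ribosome genes, the NRF1 share was lower (16.7%), and the ETS and YY1 shares were higher (42.4% and 18.2%), than in the members. TATA matches, in 7 (10.4%), were near the shares of 12.0% and 9.0% in the tables of all and of measured genes. The ZNF143 letters, searched because the COX7C promoter had been read, were in COX7B and COX7C alone (2.99%, against 1.48% and 1.8%). A match describes letters in this window and shows no bound factor.

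Most members differed by little from their controls, and with BMI1 knockdown more of them lay below the control than above it. With BMI1 knockdown, 38 of 79 members (48.1%) were below the control with both hairpins, so that the groups did not overlap, against 30.7% of all genes. In contrast, 10 members (12.7%) were above it with both, against 32.9%. With FAL-1 knockdown the counts were 14 below (17.7%, against 27.7% of all genes) and 24 above (30.4%, against 37.2%). Member genes are brighter than most, and among the 9209 genes at or above the median level 37.7% were below the control with both BMI1 hairpins, against 35 of the 71 members there (49.3%). The same shares with both FAL-1 hairpins were 35.2% of these genes and 18.3% of these members. In later paragraphs, shares of all genes are given without regard to brightness unless stated. In bulk RNA, fewer cells with a transcript and less of it per cell cannot be told apart.

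No member passed the test across genes. At a limma adjusted p of 0.05, the called share of all genes was 0.0% for BMI1 knockdown, 0.0% for FAL-1 knockdown, 0.0% for their average and 0.0% for their difference. The members' limma adjusted p was 0.9998 or more for BMI1 knockdown, 0.999 for FAL-1 knockdown, 0.907 or more for the average and 0.9999 for the difference. At an unadjusted limma p under 0.05, ATP5ME and NDUFAB1 were lower with BMI1 knockdown (2 members, against 1.56% of all genes) and COX7C was higher (1 member, against 1.03%). With FAL-1 knockdown 0 members were lower at that p (1.5% of all genes) and COX7C and NDUFA2 were higher (1.55% of all genes). ATP5ME, COX6C and COX7C had such a p for the average of both knockdowns (5.22% of all genes), and 0 members had it for the difference (0.804% of all genes).

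Fold thresholds gave few members, most of those lower with BMI1 knockdown being in complex I. With BMI1 knockdown, NDUFB6, NDUFB10, NDUFAB1, NDUFS7, NDUFS8 and ATP5ME were at least 1.2-fold lower with both hairpins, 6 of 79 members (7.59%) against 5.79% of all genes. COX7C was the 1 member at least 1.2-fold higher (3.56% of all genes). At 1.5-fold, 0 members were lower (0.901% of all genes) and COX7C was higher (0.538%). With FAL-1 knockdown, COX6C was at least 1.2-fold lower with both hairpins (4.85% of all genes), and COX7C and NDUFA2 were at least 1.2-fold higher (4.25%). At 1.5-fold, 0 members were lower (0.635%) and COX7C was higher (0.576%). These counts of 0 to 6 members are near what the shares of all genes give for 79 genes.

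The hairpins of a target did not move the members alike. The median log2 difference from the control was -0.01 with BMI1 hairpin 1 and -0.14 with BMI1 hairpin 2, beside -0.01 and 0.02 over all genes. It was 0.07 with FAL-1 hairpin 1 and -0.06 with FAL-1 hairpin 2, beside 0.00 and 0.05 over all genes. Thus 43 and 64 of 79 members were below the control with BMI1 hairpins 1 and 2, and 17 and 52 with FAL-1 hairpins 1 and 2. The median with FAL-1 knockdown changes its sign with the hairpin, and the mean of both hairpins, 0.01, describes neither. Within the BMI1 arrays the lower member median was on the array with the smaller loss of BMI1 signal. The plot of medians by hairpin shows this for each complex, and complex II and complex III had the highest and the lowest single median of any complex, both with FAL-1 hairpins.

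**Figure D1:**
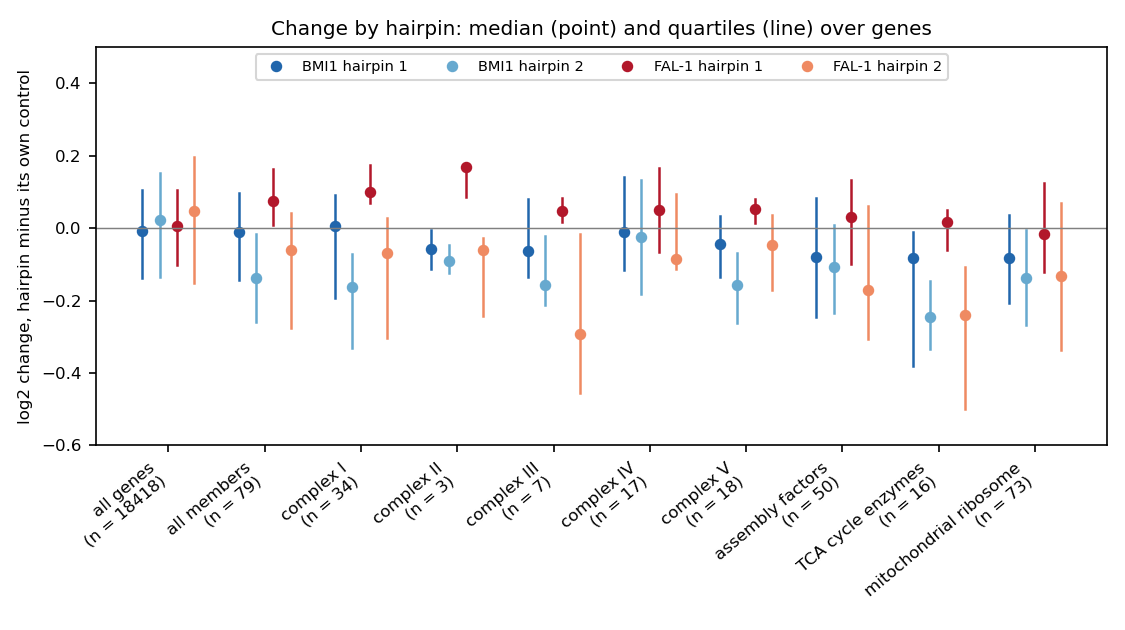
Median (point) and quartiles (line) of the log2 difference between each hairpin array and its own control (vertical axis), over all genes, the 79 members, each complex and 3 related gene lists. The member medians are -0.01, -0.14, 0.07 and -0.06 in the order of the legend, while those of all genes lie between -0.01 and 0.05.

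The measured core of complex I lay below the control with BMI1 knockdown. The core holds the flavin and the iron-sulfur clusters that carry electrons from NADH to ubiquinone, and of it NDUFS1, NDUFS3, NDUFS7, NDUFS8, NDUFV1 and NDUFV2 were measured. All 6 were below the control with both BMI1 hairpins, with medians of -0.24 and -0.32; of all genes, 30.7% were. With FAL-1 hairpin 1 their median was 0.09, and with FAL-1 hairpin 2 it was -0.34, where 5 of 6 were below the control. NDUFS1 and NDUFV2 differed between the BMI1 hairpins. NDUFS1 differed by -0.01 and -0.70 with the BMI1 hairpins, and NDUFV2 by -0.00 and -0.49. NDUFS3 differed by -0.18 and -0.34, and NDUFV1, which binds NADH and the flavin, by -0.33 and -0.19. For NDUFS1 and NDUFV2 hairpin 1 stood at the control's level, so their place in the count of 6 rests on differences near 0.

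NDUFS7 and NDUFS8, which hold the clusters nearest the ubiquinone site, were the core subunits with the most even difference between BMI1 hairpins. NDUFS7 read 9.05 in the BMI1 control and 8.75 and 8.77 with its hairpins, and 9.43, 9.60 and 9.07 on the FAL-1 arrays in the same order. NDUFS8 read 9.42, 9.07 and 9.11 on the BMI1 arrays and 9.22, 9.31 and 9.42 on the FAL-1 arrays. Both BMI1 hairpins of each lay close together and below their control, while the FAL-1 hairpins of NDUFS7 lay on either side of theirs and those of NDUFS8 lay above. Set against the BMI1 control instead, the FAL-1 hairpins of NDUFS8 averaged -0.06. The mean difference was -0.29 ± 0.01 (SD, n = 2 hairpins) for NDUFS7 and -0.33 ± 0.03 (SD, n = 2) for NDUFS8 with BMI1 knockdown. For NDUFS8 the knockdowns differed by 0.47 (limma SE 0.19, unadjusted p = 0.061, adjusted p = 0.9999), the smallest p of any member for that difference.

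The 28 accessory subunits of complex I surround the core and serve its assembly and stability. Of these, 9 were below the control with both BMI1 hairpins, near the share of all genes (30.7%). Only 2 were above it with both, a smaller share than that of all genes (32.9%). All 28 were at or above the median gene level, where the shares of genes were 37.7% below and 26.4% above. NDUFB6, in the membrane arm, had the largest mean difference of any member in size. It read 8.67 in the BMI1 control, 8.17 with hairpin 1 and 7.46 with hairpin 2, and 8.64, 8.77 and 8.38 on the FAL-1 arrays. Both BMI1 hairpins were the lowest of the 6 arrays, but they lay far apart. The mean difference was -0.86 ± 0.50 (SD, n = 2), with a limma SE of 0.36, and did not pass the test.

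NDUFB10, also of the membrane arm, read 10.37, 9.98 and 9.75 on the BMI1 arrays and 10.24, 10.23 and 9.82 on the FAL-1 arrays. All 4 hairpins were below their controls, though FAL-1 hairpin 1 by only 0.01. NDUFAB1, the mitochondrial acyl carrier protein, which also serves lipoic acid synthesis, read 10.26, 9.92 and 9.74 on the BMI1 arrays and 10.34, 10.30 and 10.29 on the FAL-1 arrays. Its BMI1 hairpins were the lowest arrays, and its FAL-1 hairpins were near their control, at -0.04 and -0.05. The mean difference with BMI1 knockdown was -0.43 ± 0.13 (SD, n = 2) for NDUFAB1 and -0.50 ± 0.17 (SD, n = 2) for NDUFB10.

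NDUFA2, an accessory subunit of the arm that reaches into the matrix, was high with FAL-1 knockdown. It read 9.98 in the FAL-1 control and 10.53 and 10.48 with its hairpins, and 9.99, 10.10 and 9.75 on the BMI1 arrays. The FAL-1 hairpins were the highest of the 6 arrays and close together, while the BMI1 hairpins lay on either side of their control. The mean difference with FAL-1 knockdown was 0.52 ± 0.03 (SD, n = 2), or 1.43-fold. limma gave it an unadjusted p of 0.048 and an adjusted p of 0.999. The FAL-1 and BMI1 differences were 0.59 apart (limma SE 0.27), with an adjusted p of 0.9999.

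Several accessory subunits had 1 array that set their value. NDUFA5 and NDUFA10 differed by -1.0 and -0.65 with FAL-1 hairpin 2, against 0.14 and -0.15 with FAL-1 hairpin 1. NDUFB2, NDUFA3 and NDUFB3 differed by -0.74, -0.44 and -0.41 with BMI1 hairpin 2, against 0.16, 0.13 and 0.08 with BMI1 hairpin 1. None of these 5 differences was of that size with both hairpins. NDUFA9, which sits at the junction of the arms, was among the most even, at -0.20 and -0.20 with the BMI1 hairpins and -0.15 and -0.29 with the FAL-1 hairpins. NDUFC1 was above its control on all 4 arrays, by 0.03 to 0.09. NDUFA6 and NDUFA7 were below with both BMI1 hairpins, at -0.10 to -0.27, and so was NDUFB4, whose 2 probe sets have identical values. Of the rest, NDUFA11, NDUFA13, NDUFB9, NDUFB11 and NDUFV3 were above the control with both FAL-1 hairpins, by 0.07 to 0.32. NDUFS4 and NDUFS6 differed by at most 0.07 and 0.13 in size on any array, and the second probe set of NDUFS4 gave a mean of -0.11 with BMI1 knockdown against 0.05 for the first. The genes NDUFA1, NDUFA8, NDUFA12, NDUFB1, NDUFB5, NDUFB7 and NDUFB8 had hairpins on either side of the control for both targets.

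**Figure D2:**
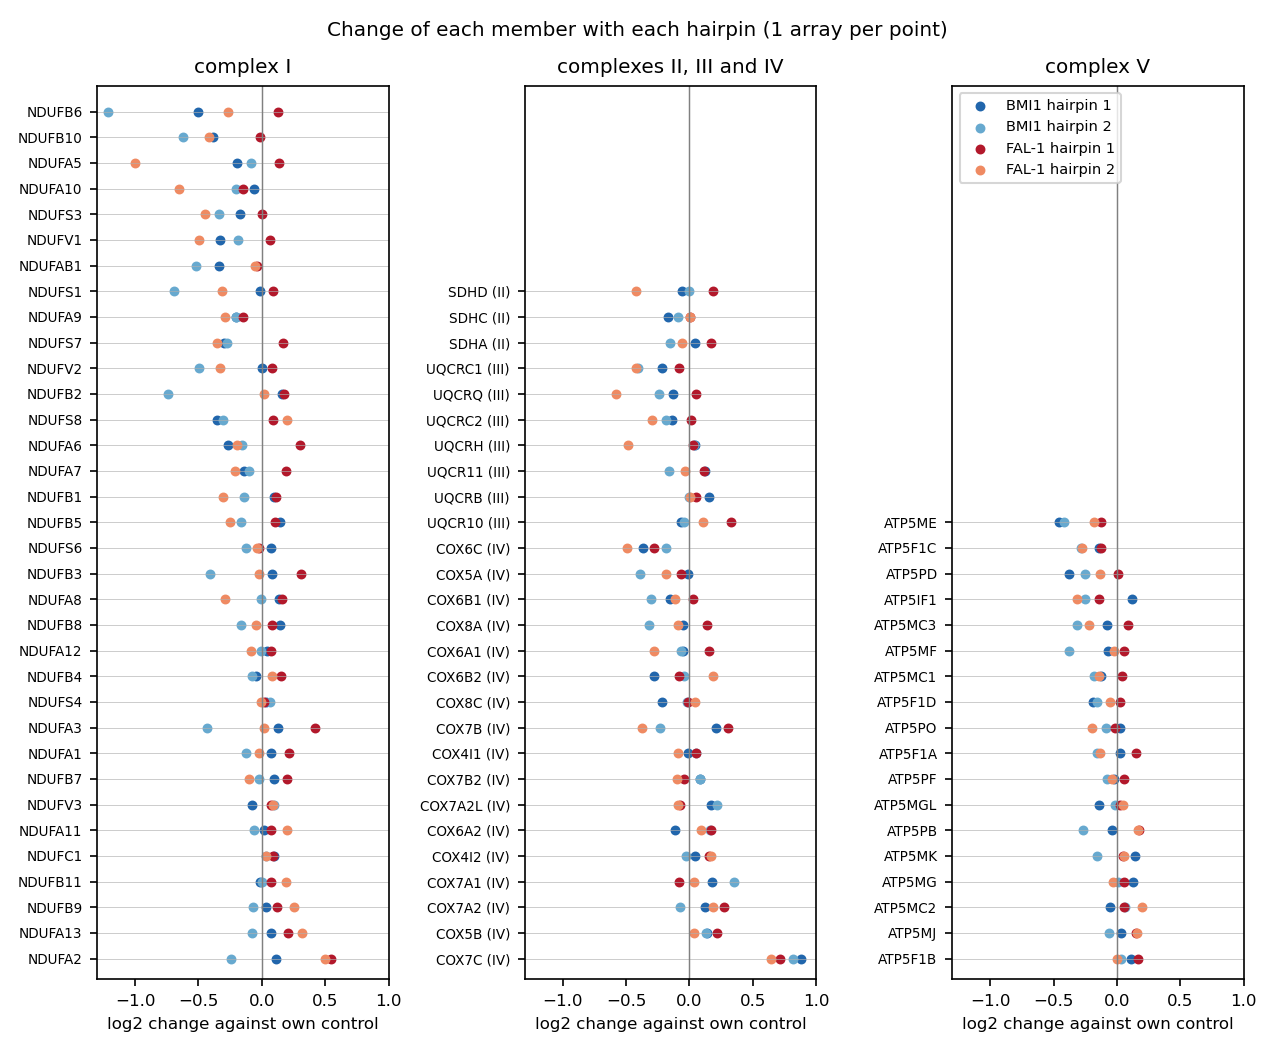
Log2 difference of each member from its own control (horizontal axis) on each of the 4 knockdown arrays (points), 1 row per gene, in panels by complex and in order of the mean over both knockdowns. COX7C is the only row with all 4 points above 0.6, and NDUFB6, NDUFA5 and NDUFB2 have points far from the other hairpin of their target.

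Complex II, succinate dehydrogenase, links the chain to the tricarboxylic acid (TCA) cycle, and 3 of its subunits were measured. SDHA, the flavoprotein that oxidises succinate, differed by 0.05 and -0.16 with the BMI1 hairpins and by 0.17 and -0.06 with the FAL-1 hairpins. SDHC, a membrane anchor, differed by -0.17 and -0.09 with the BMI1 hairpins and by 0.00 and 0.01 with the FAL-1 hairpins. SDHD, the other anchor, differed by -0.06 and -0.00, and by 0.18 and -0.42. The last value, with FAL-1 hairpin 2, was the largest in the complex. SDHC and SDHD each had a second, dimmer probe set whose mean difference has the other sign for 1 target: -0.13 against 0.01 for SDHC with FAL-1 knockdown, and 0.15 against -0.03 for SDHD with BMI1 knockdown.

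Complex III had 4 of 7 members below the control with both BMI1 hairpins and 1 with both FAL-1 hairpins, beside 30.7% and 27.7% of all genes. UQCRC1 and UQCRC2 are its large matrix-facing subunits. UQCRC1 read 8.63, 8.41 and 8.22 on the BMI1 arrays and 8.91, 8.82 and 8.48 on the FAL-1 arrays. All 4 hairpins were below their own controls, but the FAL-1 hairpin 1 array lay above the BMI1 control. The mean difference was -0.31 ± 0.13 (SD, n = 2) with BMI1 knockdown and -0.25 ± 0.24 (SD, n = 2) with FAL-1 knockdown. UQCRC2 differed by -0.14 and -0.19 with the BMI1 hairpins and by 0.01 and -0.29 with the FAL-1 hairpins.

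The small subunits of complex III diverged on FAL-1 hairpin 2. There UQCRQ differed by -0.58 and UQCRH, the hinge protein that meets cytochrome c, by -0.49, while UQCR10 differed by 0.11. With FAL-1 hairpin 1 all 3 were above, by 0.05, 0.03 and 0.33. UQCRB and UQCR11 differed by 0.16 or less in size on every array. The complex III median with FAL-1 hairpin 2, -0.29, was the lowest of any complex on any array, and it rests on 7 genes.

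Complex IV, cytochrome c oxidase, held the members furthest to 1 side by the smallest of their 4 hairpin differences, COX7C above and COX6C below. Both are small nuclear-encoded subunits that surround the catalytic core encoded by mitochondrial DNA. COX7C read 9.24 in the BMI1 control and 10.13 and 10.06 with its hairpins, and 9.46 in the FAL-1 control and 10.17 and 10.10 with its hairpins. The 2 controls were the lowest arrays, and all 4 hairpin arrays lay close together above them. The difference was 0.85 ± 0.05 (SD, n = 2), or 1.80-fold, with BMI1 knockdown and 0.68 ± 0.05 (SD, n = 2), or 1.60-fold, with FAL-1 knockdown. limma gave unadjusted p-values of 0.0021 and 0.0049, and adjusted p-values of 0.9998 and 0.999.

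COX7C thus stood above the other members but did not pass the adjusted test. It was the 1 member at least 1.5-fold higher with all 4 hairpins, which held for 28 of 18418 genes (0.152%). The next highest member mean was 0.26 for COX7A1 with BMI1 knockdown and 0.52 for NDUFA2 with FAL-1 knockdown. With the control arrays exchanged, the COX7C difference was 0.64 for BMI1 knockdown and 0.89 for FAL-1 knockdown. COX7C has 1 probe set, so no second probe set checks it, and the small nucleolar RNA gene SNORD138, which lies inside COX7C, was not among the measured genes.

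COX6C read 9.88 in the BMI1 control and 9.51 and 9.70 with its hairpins, and 10.35 in the FAL-1 control and 10.07 and 9.85 with its hairpins. Each hairpin was below its own control, but the FAL-1 control was the highest array of all, and the FAL-1 hairpin 1 array lay above the BMI1 control. The mean difference was -0.27 ± 0.13 (SD, n = 2) with BMI1 knockdown and -0.38 ± 0.15 (SD, n = 2) with FAL-1 knockdown. Against the BMI1 control, the FAL-1 hairpins stood at 0.08, so that the direction for FAL-1 depends on which control array is used. COX5A was also below its control on all 4 arrays, by -0.01 to -0.39, and COX5B above on all 4, by 0.04 to 0.22.

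**Figure D3:**
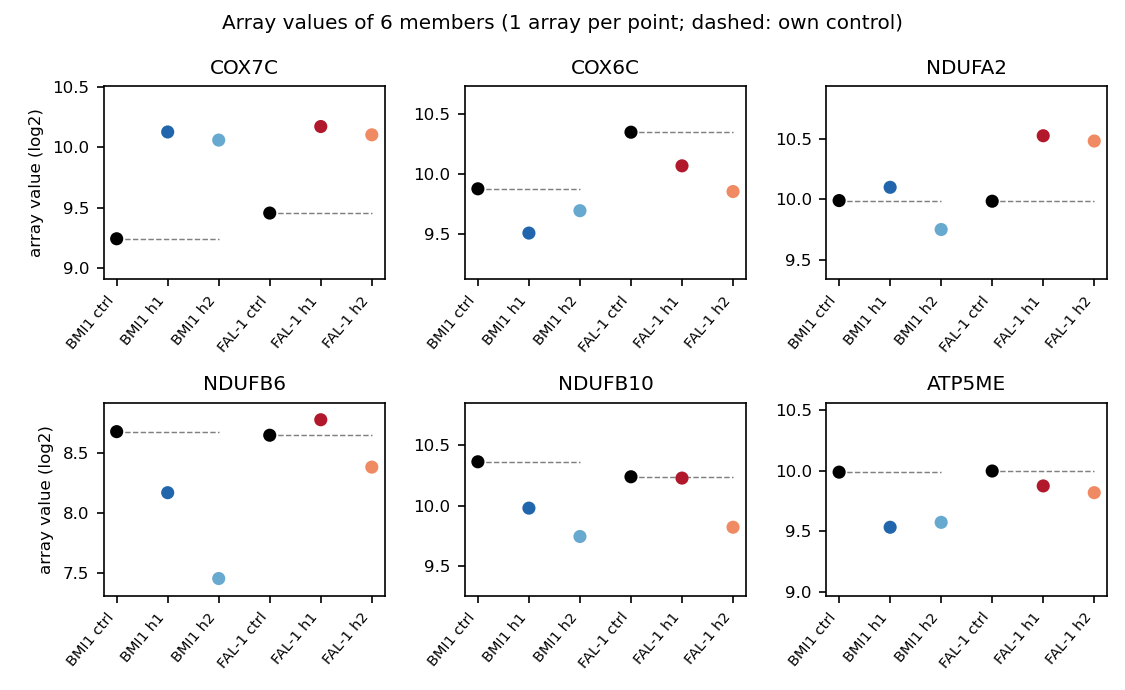
Array value (log2, vertical axis) of 6 members on the 6 arrays (points; controls black, BMI1 hairpins blue, FAL-1 hairpins red), with dashed lines at each target's own control. All axes span the same range; the COX7C hairpins lie 0.65 to 0.88 above their controls, and the COX6C controls differ from each other by 0.47.

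Complex IV has isoforms that differ by tissue, and none of the restricted ones stood out. The common isoforms COX4I1, COX6A1, COX6B1, COX7A2, COX7B and COX8A had mean differences from -0.23 (COX6B1) to 0.03 (COX7A2) with BMI1 knockdown, and from -0.06 (COX6A1) to 0.23 (COX7A2) with FAL-1 knockdown. The restricted isoforms COX4I2, COX6A2, COX6B2, COX7A1, COX7B2 and COX8C, of lung, muscle or testis, had mean array values between 5.46 and 7.34. Their largest mean difference was 0.26 ± 0.12 (SD, n = 2) for COX7A1, the heart and skeletal muscle isoform, with BMI1 knockdown. COX7A2L, which helps join complexes III and IV into supercomplexes, differed by 0.17 and 0.22 with the BMI1 hairpins and by -0.07 and -0.09 with the FAL-1 hairpins. COX7B had the widest spread between hairpins in this complex, at 0.31 and -0.37 with FAL-1 hairpins 1 and 2.

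Complex V, the ATP synthase, had 10 of 18 members below the control with both BMI1 hairpins and 2 above, beside 30.7% and 32.9% of all genes. ATP5ME, subunit e, sits in the membrane part where synthase dimers form. It read 9.99 in the BMI1 control and 9.53 and 9.57 with its hairpins, and 10.00, 9.87 and 9.82 on the FAL-1 arrays. The BMI1 hairpins were the lowest arrays, the FAL-1 hairpins came next, and the controls, 0.01 apart, were the highest. The mean difference was -0.44 ± 0.03 (SD, n = 2) with BMI1 knockdown and -0.15 ± 0.04 (SD, n = 2) with FAL-1 knockdown. limma gave the first an unadjusted p of 0.023 and an adjusted p of 0.9998. The 2 knockdowns differed by 0.28 (limma SE 0.18), with an adjusted p of 0.9999.

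The subunits of the catalytic head of the synthase were not all below the control with both BMI1 hairpins. ATP5F1A and ATP5F1B, its alpha and beta subunits, differed by 0.03 and -0.16 and by 0.11 and 0.03 with the BMI1 hairpins. ATP5F1C, the central shaft, was below its control on all 4 arrays, at -0.14, -0.28, -0.13 and -0.27, and ATP5F1D was below with both BMI1 hairpins, at -0.19 and -0.16. In the peripheral stalk, which keeps the head from turning, ATP5PD differed by -0.38 and -0.25 and ATP5PB by -0.04 and -0.27 with the BMI1 hairpins. ATP5PF and ATP5PO, of the same stalk, differed by 0.09 or less in size with these hairpins.

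The proton-driven c ring is built from 1 protein made by 3 genes. ATP5MC1 and ATP5MC3 were below the control with both BMI1 hairpins, at -0.12 and -0.18 and at -0.08 and -0.32, while ATP5MC2 was at -0.05 and 0.06. ATP5MF, another membrane subunit, differed by -0.07 and -0.38, and ATP5MG and ATP5MK by 0.16 or less in size. The second, dimmer probe set of ATP5MK was below the control with both BMI1 hairpins, at -0.03 and -0.21. ATP5MJ was above the control with both FAL-1 hairpins, at 0.15 and 0.16, and ATP5MGL, a gene related to ATP5MG, differed by 0.14 or less in size on every array. ATP5IF1, which blocks the synthase from running backwards, read 8.86, 8.98 and 8.60 on the BMI1 arrays and 9.12, 8.98 and 8.80 on the FAL-1 arrays. Its FAL-1 hairpins were below their control, by -0.14 and -0.31, and its BMI1 hairpins lay on either side of theirs.

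Across both targets, 9 members were below their own control on all 4 arrays: ATP5F1C, ATP5ME, COX5A, COX6C, NDUFA9, NDUFA10, NDUFAB1, NDUFB10 and UQCRC1. That is 11.4% of members, against 14.1% of all genes. COX5B, COX7C and NDUFC1 were above on all 4, 3.8% of members against 17.0% of all genes. The 2 mean differences, which share no array, had a Pearson r of 0.48 over the 79 members (Spearman rho 0.39) and of 0.56 over all genes (0.47), as a description across genes, which are not independent. The plot of the 2 knockdowns against each other shows most members near the origin, COX7C alone at the upper right, NDUFA2 above and NDUFB6 to the left.

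**Figure D4:**
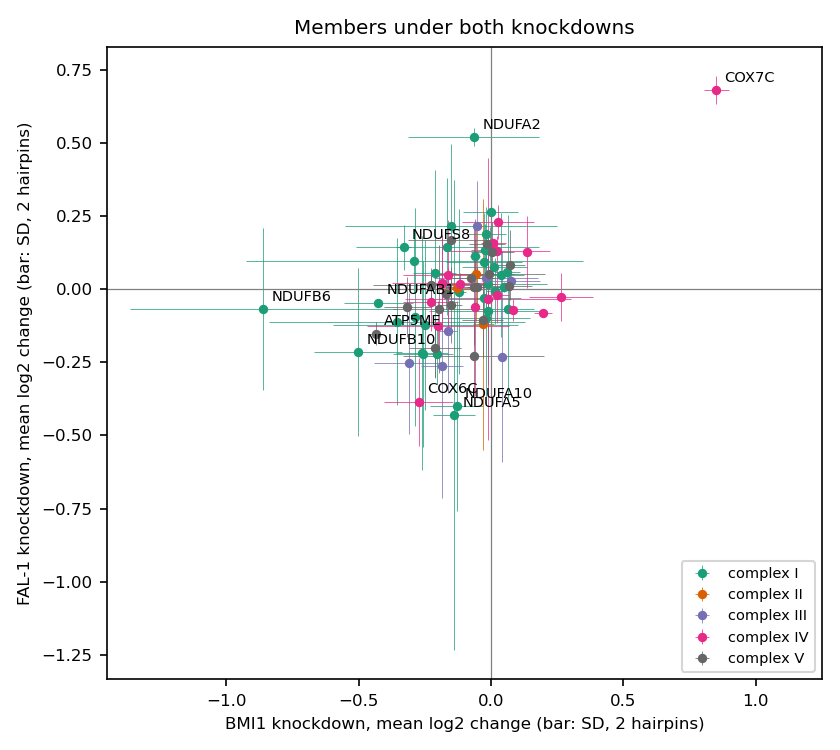
Mean log2 difference from the own control with BMI1 knockdown (horizontal axis) and FAL-1 knockdown (vertical axis) for the 79 members, coloured by complex, with bars for the SD of 2 hairpins. COX7C lies at 0.85 and 0.68, NDUFA2 at -0.06 and 0.52, and NDUFB6 at -0.86 and -0.07; long bars, as for NDUFA5, mark hairpins that differ.

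The controls themselves differed in the members. The FAL-1 control stood above the BMI1 control by a median of 0.07 over the members, and 68.4% of members were higher in it, against 55.1% of all genes. Set against the FAL-1 control, the member median with BMI1 knockdown was -0.16 instead of -0.06, and FAL-1 knockdown set against the BMI1 control gave 0.07 instead of 0.01. With 1 control array a target, the control's own spread was not measured. Each statement of a member below or above its control rests on that array.

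Other genes that serve respiration were taken from lists, with 0 genes past the limma adjusted threshold in any. Their counts below the control stand beside 30.7% of all genes with both BMI1 hairpins and 27.7% with both FAL-1 hairpins. These lists are bright, with median levels from 9.04 (assembly factors) to 11.35 (cytosolic ribosome), against 7.58 over all genes. Among genes at or above the median level, the shares below the control were higher, at 37.7% with both BMI1 hairpins and 35.2% with both FAL-1 hairpins. Of 50 assembly factors, which build the complexes but are not part of them, 23 were below the control with both BMI1 hairpins and 17 with both FAL-1 hairpins. SURF1, needed to assemble complex IV, differed by -0.45 and -0.43 with the BMI1 hairpins and by 0.18 and 0.26 with the FAL-1 hairpins. NDUFAF1, a complex I assembly factor, differed by -0.38 and -0.39 with the BMI1 hairpins, and by -0.10 and 0.05 with the FAL-1 hairpins. COA3, another complex IV assembly factor, was above its control on all 4 arrays, at 0.31, 0.21, 0.65 and 0.63, and COX18 was below on all 4, at -0.27, -0.79, -0.44 and -0.70. The only genes of this list with an unadjusted limma p under 0.05 were 2 lower ones with BMI1 knockdown and 1 higher one with FAL-1 knockdown. The shares of all genes were 1.56% and 1.55%.

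Of 16 TCA cycle enzymes, which feed the chain, 12 were below the control with both BMI1 hairpins (30.7% of all genes) and 7 with both FAL-1 hairpins (27.7%). Their medians were -0.08 and -0.25 with the BMI1 hairpins and 0.02 and -0.24 with the FAL-1 hairpins. IDH2, the mitochondrial isocitrate dehydrogenase that makes NADPH, differed by -0.94 and -1.17 with the BMI1 hairpins and by -0.32 and -1.49 with the FAL-1 hairpins. PDHA1, of the pyruvate dehydrogenase complex that leads into the cycle, differed by -0.52, -0.66, -0.14 and -0.46. Both were below their control on every knockdown array. OGDH, of the cycle, differed by -0.27 and -0.20 with the BMI1 hairpins and was above its control with both FAL-1 hairpins, by 0.19 and 0.07.

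Cytochrome c and regulators of mitochondrial biogenesis gave 9 of 17 genes below the control with both BMI1 hairpins (30.7% of all genes) and 6 with both FAL-1 hairpins (27.7%). CYCS, cytochrome c itself, differed by -0.17 and -0.70 with the BMI1 hairpins and by -0.07 and -0.27 with the FAL-1 hairpins. TFAM, which packages and transcribes mitochondrial DNA, differed by -0.12, -0.43, -0.39 and -0.30, and the coactivator PPRC1 by 0.17, 0.15, 0.23 and 0.32. Among 73 mitochondrial ribosome genes, 39 were below the control with both BMI1 hairpins (30.7% of all genes) and 33 with both FAL-1 hairpins (27.7%), and MRPS34 had the lowest values named, at -0.76 and -1.10 with BMI1. Among 22 genes of protein import and inner membrane organisation, 12 were below with both hairpins of either target, with TIMM17A at -0.40 and -0.49 with BMI1 and OPA1 at -0.20, -0.55, -0.28 and -0.31 over the 4 arrays. The cytosolic ribosome, whose proteins work outside mitochondria, had 16 of 61 genes below with both BMI1 hairpins (30.7% of all genes) and 41 of 61 with both FAL-1 hairpins (27.7%). At an unadjusted limma p under 0.05, the TCA, mitochondrial ribosome and import lists each had 1 gene lower with BMI1 knockdown. They had 0 lower with FAL-1 knockdown, and the shares of all genes were 1.56% and 1.5%. The cytosolic ribosome had 1 gene lower and 1 higher with BMI1 knockdown, and 1 lower with FAL-1 knockdown.

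The differences from the control can also be read by promoter motif. The 22 members with an NRF1 match had medians of -0.05, -0.08, 0.09 and -0.07 over the 4 knockdown arrays, against -0.01, -0.17, 0.08 and -0.09 for the 45 without. The 19 with an ETS match had -0.01, -0.13, 0.06 and -0.10, against -0.01, -0.16, 0.08 and -0.07. The 7 with a YY1 match had -0.20, -0.16, 0.06 and -0.21, against -0.01, -0.15, 0.08 and -0.09, and no test was run on these groups.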

How the data were processed

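The authors deposited 1 table of log2 values for 33252 probe sets on 6 Affymetrix arrays, 1 per culture. Per the submitters' processing notes the log2 values involved RMA, which corrects background, normalizes and summarises probes; the sources used here do not give its version or say if the 6 arrays were processed jointly. Of the probe sets, 19460 had 1 annotated symbol, 1754 several and 12038 none listed. A gene with several was read by the brightest, leaving 18418 genes, and no filter on dim genes was set. Groups follow the labels. limma 3.58.1 (R 4.3.3; lmFit, eBayes, two-sided) was fitted with 4 group means and 2 residual degrees of freedom, the spread of a control being taken as that of the hairpin pairs. P-values were Benjamini-Hochberg adjusted over all genes at 0.05, and the fit was tested on simulated data. An exact permutation of 1 against 2 arrays cannot go below a p of 0.333, so none was run. The members and lists were chosen with earlier results of these data known. Named genes were fixed core subunits, isoform groups and COX7C, up to 6 members a direction by the smaller hairpin difference, those of smallest p per complex, target and difference, members whose probe sets differ in sign, and 3 of each other list per target; other members are named to account for all 79. Alternatives were other controls, normalizations, probe set rules, filters, variance priors, thresholds, the replicate block and leaving out each hairpin array. Figures used matplotlib 3.10.9 (Python 3.11.15). The number of arrays limits the precision.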

Additional observations from a re-analysis of the deposited data

Results flagged for a closer look

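Members that lay on opposite sides of their controls under the 2 knockdowns were singled out, since every array of a pair moved 1 way and every array of the other pair the opposite way. There were 6 members below the control with both BMI1 hairpins and above it with both FAL-1 hairpins: ATP5MGL, ATP5PB, NDUFB4, NDUFS8, SDHC and UQCR10. The same held for 6.43% of all genes. SDHC is among them on FAL-1 differences of 0.0041 and 0.0063, and its second probe set was below the control with both FAL-1 hairpins, at -0.14 and -0.12. COX7A2L and COX7B2, 2 members, lay the other way, as did 4.41% of all genes. COX7B2 was dim, with a mean array value of 5.46, and its 6 arrays lay between 5.40 and 5.51. For COX7A2L all 4 knockdown arrays lay between the BMI1 control (9.11) and the FAL-1 control (9.48). With the controls exchanged its differences were -0.17 with BMI1 knockdown and 0.29 with FAL-1 knockdown, so both directions depend on the control array used. The same held for ATP5MGL, a dim gene with a mean array value of 6.85. All 4 of its knockdown arrays lay between the FAL-1 control (6.79) and the BMI1 control (6.94). Its exchanged differences were 0.07 with BMI1 knockdown and -0.11 with FAL-1 knockdown. For NDUFS8 the FAL-1 hairpins averaged -0.06 against the BMI1 control, so its FAL-1 direction also depends on the control array used. NDUFS8 and ATP5PB had the widest gaps between the knockdowns, 0.47 (limma SE 0.19) and 0.32 (limma SE 0.22), and SDHC and ATP5MGL the narrowest, 0.14 and 0.11. The difference was tested with limma for each, and none passed (adjusted p = 0.9999). Groups of 1 and 2 arrays are too small for a check of outlying arrays.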

How the results depend on the processing

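The count of members past the adjusted threshold was 0 for each knockdown, their average and their difference under every alternative run except an unadjusted p under 0.05, which gave 3, 2, 3 and 0. Leaving out either hairpin array gave 0 to 0, and the hairpin number as a replicate block gave 0; the numbers name different hairpins and do not pair the samples (deviations correlated at 0.275 over all genes, from 2 pairs). The BMI1 median of -0.06 was -0.16 with the other target's control and -0.14 to -0.01 without either hairpin; the FAL-1 median of 0.01 was -0.06 to 0.07 without either. Members below the control with both hairpins, 38 and 14, came to 6 and 1 at 1.2-fold and to 0 and 0 at 1.5-fold, as stricter thresholds must give fewer. Over the other alternatives these counts ran from 35 to 50 and from 13 to 18. The mean difference with FAL-1 knockdown turned from -0.38 to 0.084 for COX6C and from -0.34 to 0.059 for MRPL47 with the other target's control; the cause was not tested. Of 1484 values of named genes under alternatives, 1297 stayed within the hairpin SD, 185 moved by more and 2 were counted as reversed. The other target's control gave 81 of the moved and both of the reversed. Genes outside that count of 2 changed sign there too. COX7A2L went from 0.20 to -0.17 with BMI1 knockdown and from -0.08 to 0.29 with FAL-1 knockdown. Leaving out 1 of 2 hairpins cannot move a mean past their SD, though it can change its sign. The replicate block and the filter on dim genes left each difference unchanged, so these values stayed by construction. COX7C kept 0.64 to 0.89 with BMI1 knockdown and 0.65 to 0.89 with FAL-1 knockdown. Signal over background was not measured, since the table holds no background values.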
